A study of Mus musculus with 6 samples.

Results

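The genes described here are 9 immediate early and handling stress genes, Fos, Fosb, Jun, Junb, Egr1, Atf3, Ier2, Ier3 and Dusp1. They were chosen by name: every non-control probe that the scanner files give one of these gene names was taken, which gave 9 of the 27745 gene names on the array and 11 of its 41174 non-control probes. The samples were hearts of male mice, 3 WT and 3 TG-PKR1, all 12 weeks old, and each heart had its own array. TG-PKR1 mice overexpress PKR1, a prokineticin receptor of the G protein-coupled family, in cardiomyocytes under the alpha myosin heavy chain promoter. Per the methods the mice were kept on a C57BL6/J background, and no treatment is named for either group. The hearts are called WT1 to WT3 and TG1 to TG3 below, and these numbers do not pair WT with TG-PKR1 mice.

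Immediate early genes are transcribed within minutes of a stimulus, without new protein synthesis, when kinases of the MAPK and PKA families switch on transcription factors such as SRF, ELK and CREB that already sit in the cell. Many of their products are themselves transcription factors, which pass the signal on to later genes, while others, such as the phosphatase DUSP1, end it. In the heart they are induced by stretch, adrenergic stimulation and ischemia, and they also respond to anesthesia and handling.

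Values are log2 spot signals after loess normalization against the median profile of the 6 arrays, so a difference of 1 is a 2-fold change. The 20000 probes with the highest median were tested, and 9 of the 11 probes, from 8 genes, were among them. The Fos probe and the dimmer of 2 Ier2 probes were not, and their tests come from the same fit over all 41174 probes. Across the 20000 probes limma called 19, all lower in TG-PKR1 hearts, which is 0.0950% (adjusted p under 0.05). That count was 0 without WT1, WT3, TG1 or TG3, and 8 without TG2. None of the 11 probes was called by limma in its fit, where the smallest adjusted p was 1.0 and 1 probe had an unadjusted p under 0.05. SAM, run on the 19955 of the 20000 probes measured on all 6 arrays, called 0.271% of them and none of the 9 probes of these genes among them. Its calls were taken at an estimated false discovery rate of 0, a threshold unlike that of limma.

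The arrays differed in signal. In the scanner statistics the factor that scales a second, low-gain scan was 8.57 to 8.73 for WT1, TG2 and TG3 and 1 for WT2, WT3 and TG1. The first 3 arrays were therefore taken as scanned in an extended range and the others in 1 scan, although the files' header marks all 6 alike, so this scan mode is an inference. WT2 and TG1 shared a slide. The 75th percentile of signal over local background ran from 2.08 in WT2 to 14.1 in TG3, and from 19650 to 24920 probes were well above background. Prokr1, which encodes PKR1, had a probe that was well above background on 0 of 6 arrays, so these values do not check the genotypes. How the hearts were collected is not given in the labels. The methods name cervical dislocation for mice in groups of 6, without naming these array hearts.

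Of the AP-1 subunits, Fos, the classical partner of JUN, was near the floor of the arrays. Its probe lies at chr12:86366053-86366112 on the plus strand of mm8, the build of all probe positions given here. Its normalized log2 signal was 6.60, 6.35 and 6.39 in WT1, WT2 and WT3 and 6.36, 6.42 and 6.35 in TG1, TG2 and TG3. WT1 stood above the other 5 hearts, which lay together, and the groups overlapped. The difference, TG-PKR1 minus WT, was -0.07 ± 0.08 (SE, limma, unadjusted p = 0.399, adjusted p = 1.0). In linear terms its 95% interval ran from 0.830-fold to 1.09-fold, on signals without background subtraction, which compress the fold of a dim probe. Outside that interval lay the differences from the background-subtracted processed signal (-0.28) and from 75th percentile scaling (-0.51).

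Fos and Jun have 10 spots each on every array, which show the noise between spots of 1 array but not the error of labelling, hybridization or scanning. Within an array the SD of the Fos spots had a median of 0.10, and the SD of the 6 heart values was 0.0966. Each heart value is a mean of up to 10 spots, and the SE of such a mean, from its spots, had a median of 0.0318, which is below the SD of the heart values. That SD rests on WT1, since without WT1 the pooled SD of Fos between hearts of one group was 0.0350, close to the SE. Only 3 of the 10 Fos spots were well above background on the array of WT2 and 8 on that of TG1, against all 10 on the other 4 arrays. For Jun the spot SD had a median of 0.132 and the heart values an SD of 0.172, beside a median SE of 0.0419 for a mean of its spots, and the spots of TG2 lay mostly above those of TG1 and TG3.

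**Figure D1:**
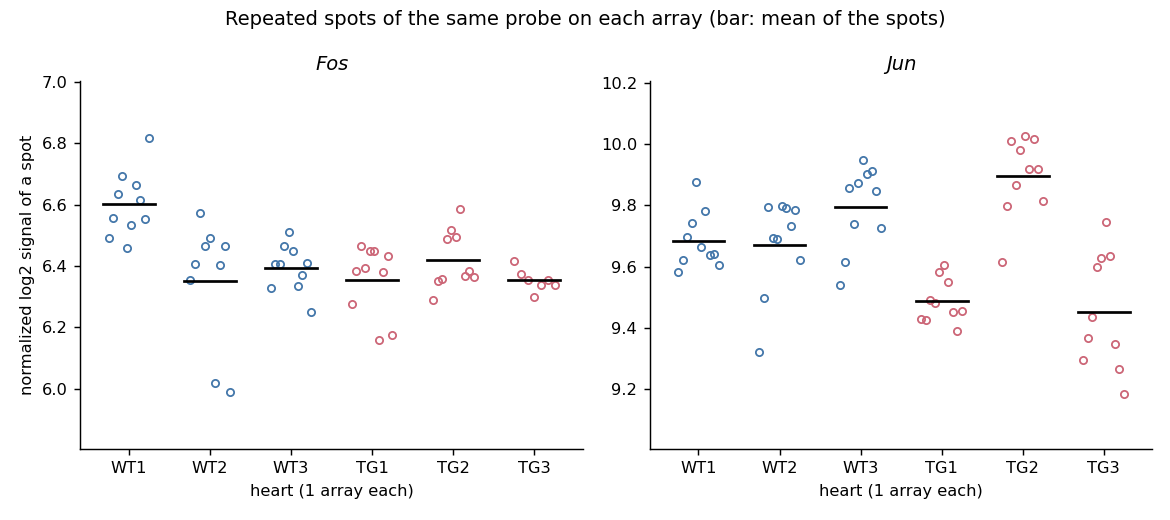
Normalized log2 signal of every spot of the Fos probe and of the Jun probe (y axis) on the array of each heart (x axis), with WT in blue, TG-PKR1 in red and bars at the mean of the spots. The highest Fos mean is that of WT1, 6.60, while the Jun means run from 9.45 in TG3 to 9.90 in TG2; spots marked as outliers are left out, which leaves 9 Fos spots for WT2 and 7 for TG3.

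Jun (probe at chr4:94541191-94541250, minus strand), the most common partner of FOS proteins, measured 9.68, 9.67 and 9.80 in WT1 to WT3 and 9.49, 9.90 and 9.45 in TG1 to TG3. The 3 WT hearts lay close together (SD 0.0681, n = 3), and the TG-PKR1 hearts lay on both sides of them (SD 0.248, n = 3). The difference was -0.11 ± 0.17 (SE), and it ran from -0.25 without TG2 to -0.026 without TG3.

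Fosb (chr7:18461650-18461709, minus strand), a FOS family member that is also known from chronic stimulation, had the widest spread of the 9 genes. It measured 7.16, 7.56 and 7.09 in the WT hearts, in order, and 6.90, 7.92 and 6.81 in the TG-PKR1 hearts. TG2 was the highest heart and TG3 the lowest, so both extremes were TG-PKR1 hearts, 2.15-fold apart. The difference was -0.06 ± 0.30 (SE), and its 95% interval, from 0.600-fold to 1.53-fold, was the widest of the 9. Fosb was dim as well, at 1.44 to 7.51 times local background over the arrays. From the background-subtracted processed signal its difference was -0.38.

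Junb, which forms AP-1 with FOS proteins and often opposes JUN at shared targets, was measured by 2 overlapping probes, at chr8:87867087-87867146 and chr8:87867049-87867108 on the minus strand. The brighter probe gave 11.45, 11.38 and 11.58 in WT1 to WT3 and 10.86, 11.43 and 10.99 in TG1 to TG3. The other probe gave 11.35, 11.70 and 11.41 in the same WT hearts and 10.71, 11.58 and 10.79 in the TG-PKR1 hearts. With both probes TG1 and TG3 lay below all WT hearts and TG2 lay among them, so the groups overlapped. Under quantile normalization TG2 lay below the WT hearts in the brighter probe. The differences were -0.38 ± 0.18 and -0.46 ± 0.24 (SE), with unadjusted limma p of 0.0711 and 0.0931 and adjusted p of 1.0. The probes overlap by 22 bases on 1 transcript, so they are not independent measurements. Without TG2 the Junb difference was -0.54 (limma unadjusted p = 0.0103, adjusted p = 0.720), and without TG1 it was -0.26.

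**Figure D2:**
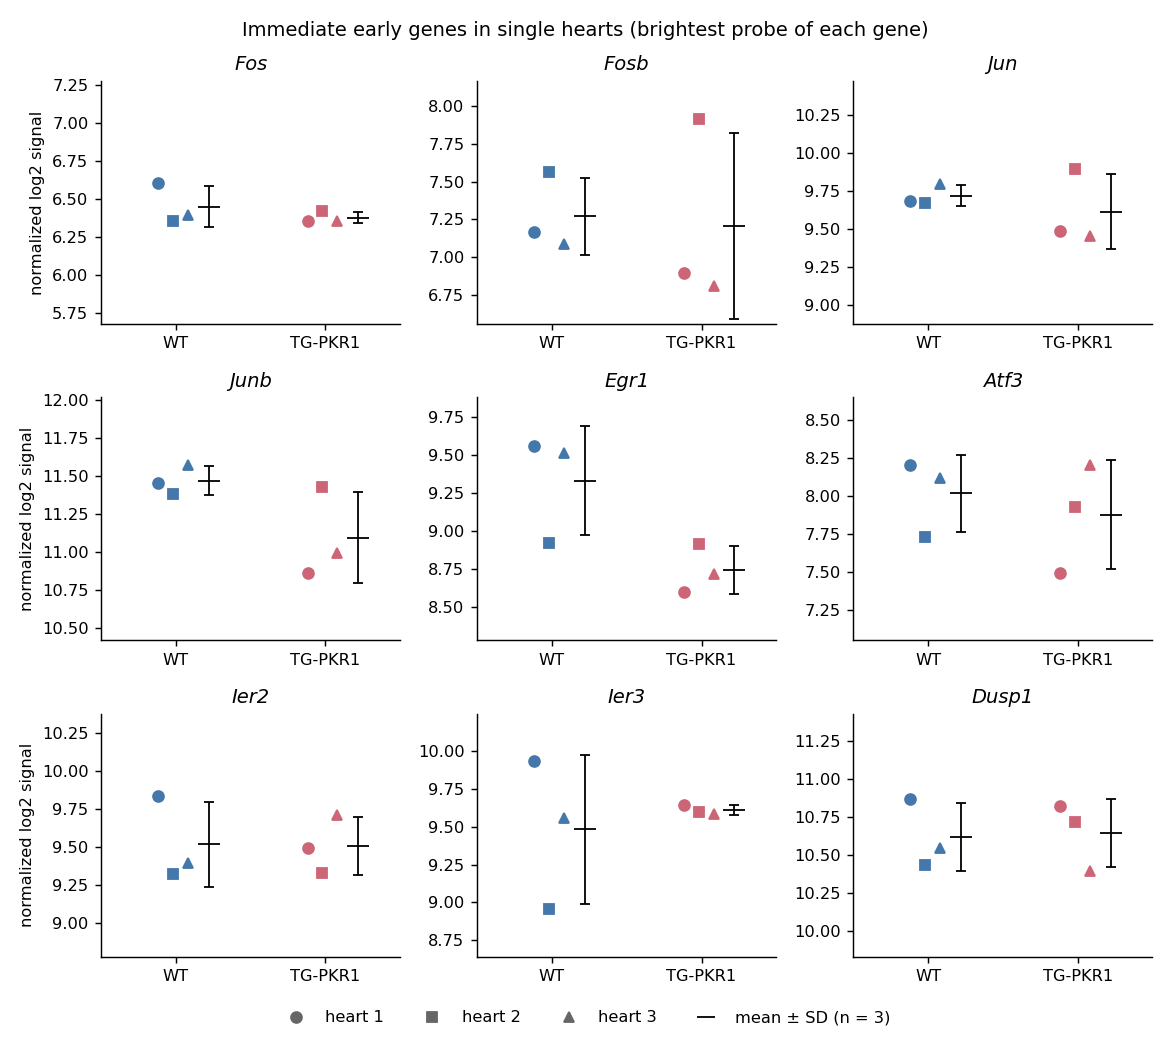
Normalized log2 signal (y axis, the same span of 1.6 in every panel) of the brightest probe of each gene in the WT and TG-PKR1 hearts, 1 point per heart with the mean ± SD (n = 3). In Egr1 alone the groups do not overlap, by 0.0029; heart 2 is the highest TG-PKR1 heart in Fos, Fosb, Jun, Junb and Egr1.

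Egr1, a zinc finger transcription factor induced through SRF and ELK, was the member with the largest difference. It measured 9.56, 8.92 and 9.51 in WT1 to WT3 and 8.60, 8.92 and 8.72 in TG1 to TG3. WT2 lay with the TG-PKR1 hearts rather than with the other WT hearts, and was above the highest of them, TG2, by only 0.0029. The mean was lower in TG-PKR1 by 0.59 ± 0.20 (SE), or 0.666-fold with a 95% interval from 0.482-fold to 0.921-fold. By limma the unadjusted p was 0.0197 and the adjusted p over the 20000 probes 1.0, so Egr1 did not pass. The groups overlapped under 75th percentile scaling of the arrays in place of loess. An exact two-sided permutation test over the hearts gave p = 0.1, the smallest that 3 against 3 allows.

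Egr1 was the only 1 of the 11 probes with an unadjusted p under 0.05, in the lower direction, beside 1.66% of all 20000 probes, and 0 of the 11 had one in the higher direction, beside 0.715%. It is likewise the only probe of the 11 whose groups did not overlap. Over all probes with complete values, 2.73% had every TG-PKR1 heart below every WT heart, and 5.41% had groups apart in either direction. A count of 1 among 11 is too small to read against these shares. The Egr1 mean was lower in TG-PKR1 whichever heart was left out, from -0.79 without WT2 to -0.47 without WT1, and the smallest adjusted limma p of those 6 fits was 0.552. The unadjusted limma p was under 0.05 without WT2 or TG2 and was 0.0526 to 0.0711 in the other 4 fits, and 0.123 under 75th percentile scaling.

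Atf3 (chr1:192871283-192871342, minus strand), a stress-induced repressor of the ATF and CREB family, measured 8.21, 7.73 and 8.12 in WT1 to WT3. The TG-PKR1 hearts gave 7.49, 7.93 and 8.21, with TG1 lowest of all and TG3 as high as WT1. The difference was -0.14 ± 0.22 (SE) and the groups overlapped over most of their range.

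The early response genes Ier2 and Ier3 and the feedback phosphatase Dusp1 had overlapping groups. Ier2 (chr8:87549656-87549690, minus strand), which encodes a small nuclear protein, measured 9.84, 9.32 and 9.39 in the WT hearts and 9.49, 9.33 and 9.71 in the TG-PKR1 hearts, a difference of -0.01 ± 0.19 (SE). Its dimmer probe, well above background on 5 of 6 arrays, lay between 6.03 and 6.51 with a difference of -0.05 ± 0.16 (SE).

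Ier3 (chr17:35430636-35430695, plus strand), an early response gene with a role in cell survival, measured 9.93, 8.96 and 9.56 in WT1 to WT3 and 9.64, 9.59 and 9.59 in TG1 to TG3. All 3 TG-PKR1 hearts lay within 0.06 of each other and between WT1 and WT3, while the WT hearts spanned 0.98. The difference was 0.13 ± 0.24 (SE), and without WT2 it was -0.14.

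Dusp1 (chr17:26233451-26233508, minus strand) encodes a phosphatase of p38 and JNK, which closes the loop on kinases that induce these genes. It measured 10.87, 10.43 and 10.55 in WT1 to WT3. TG1, TG2 and TG3 gave 10.82, 10.72 and 10.40, over nearly the same range. The difference was 0.03 ± 0.18 (SE), and the 95% interval ran from 0.764-fold to 1.36-fold.

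Across the brightest probes of the 9 genes, the mean was lower in TG-PKR1 for 7 and higher for 2, Ier3 and Dusp1, and over all 11 probes for 9 and 2. Among the 20000 probes 41.8% had a lower mean. The median difference of the 9 genes was -0.07, beside 0.03 for all 20000 probes. Of the 9 genes 6 changed sign under at least 1 left-out heart, while Jun, Junb and Egr1 were lower in all 6 such fits.

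**Figure D3:**
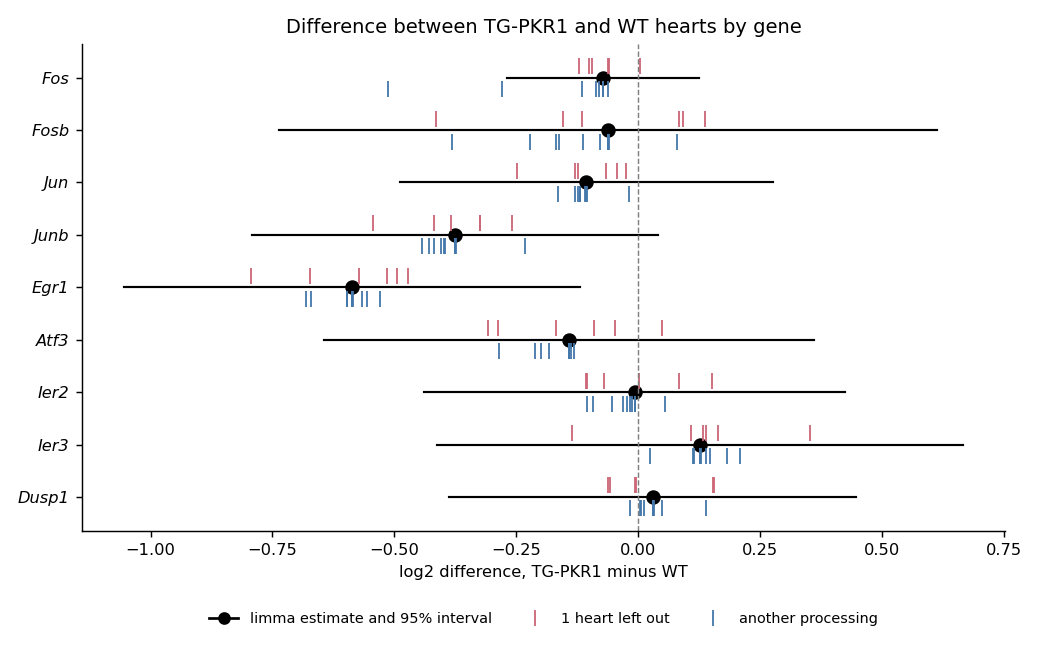
Log2 difference, TG-PKR1 minus WT, of the brightest probe of each gene (x axis), with the limma estimate and 95% interval in black, the 6 fits without 1 heart as red ticks and the other ways of processing as blue ticks. Egr1 alone has an interval below 0, from -1.05 to -0.12, and its ticks and those of Jun and Junb all lie below 0.

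The arrays fell in both inferred scan modes in each group, so the differences were also taken within a mode. In the extended mode, WT1 against TG2 and TG3, the Egr1 difference was -0.74, and with 1 scan, WT2 and WT3 against TG1, it was -0.62. On the shared slide, WT2 against TG1, it was -0.32. The corresponding Junb differences were -0.24, -0.62 and -0.52. For 4 genes the direction was not the same in both modes. Fosb gave 0.20 in the extended mode and -0.42 with 1 scan, Ier2 -0.32 and 0.13, Ier3 -0.34 and 0.39, and Dusp1 -0.31 and 0.33. With 1 heart on a side these are values without a test.

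How far hearts of the same group differed in these genes was the next question. The pooled within-group SD of the 9 genes had a median of 0.239, beside 0.224 over all complete probes, whose 90th percentile was 0.432. It exceeded the median of all probes for 5 of the 9 genes. Fosb (0.470) alone lay above the 90th percentile, followed by Ier3 (0.349) and Atf3 (0.312), and Fos had the smallest (0.0985). Single hearts set several of these values, as a check added after seeing the data showed. Without TG2 the SD of Fosb was 0.211, that of Jun 0.0576 and that of Junb 0.0949. Without WT2 the SD of Ier3 was 0.156 and that of Egr1 0.131, and without WT1 that of Fos was 0.0350 and that of Ier2 0.159. Between the highest and the lowest of the 6 hearts the range was 1.95-fold for Egr1, 1.97-fold for Ier3 and 1.39-fold for Dusp1.

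**Figure D4:**
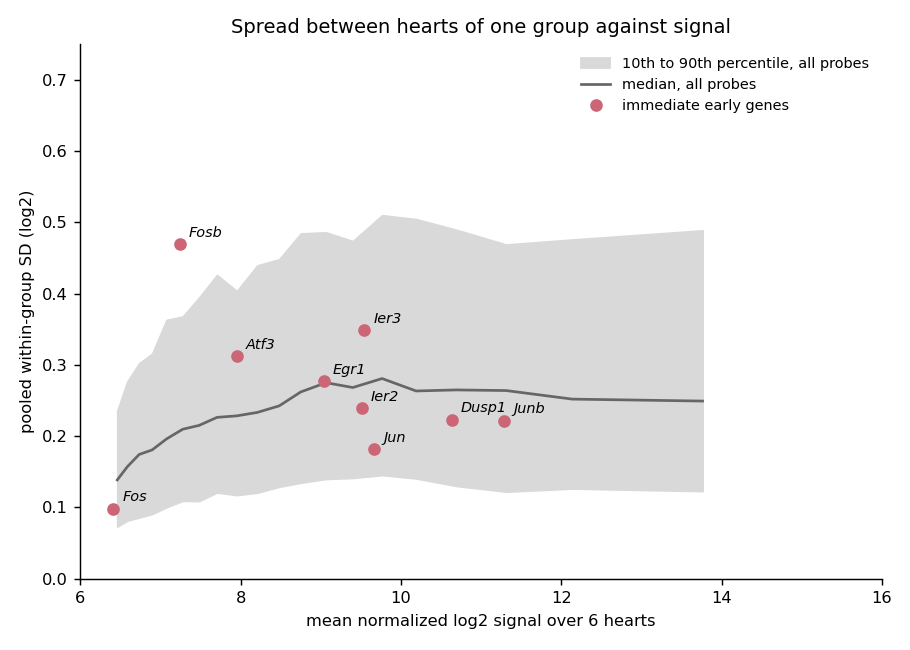
Pooled within-group SD of the log2 signal (y axis) against the mean normalized log2 signal over the 6 hearts (x axis) for the 9 genes, in red, over the median and the 10th to 90th percentiles of all complete probes in 20 bins of signal, in grey. Fosb lies above the grey band at an SD of 0.470 and the other 8 genes lie within it or at its low-signal edge.

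By heart, WT1 had the highest value for 5 of the 9 genes and the lowest for 0. The lowest value fell 3 times on WT2, 3 times on TG1 and 3 times on TG3. Averaged over the 9 genes, the deviation from each gene's mean was 0.23 in WT1, -0.11 in WT2, 0.08 in WT3, -0.18 in TG1, 0.10 in TG2 and -0.12 in TG3. The hearts of the 2 groups were thus interleaved, with TG2 above WT3 and WT2 above TG3. WT2 and TG1, which shared a slide, also had the 2 lowest values of signal over background (2.08 and 2.74), while TG3 had the highest (14.1), and the part of signal in this order was not tested.

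**Figure D5:**
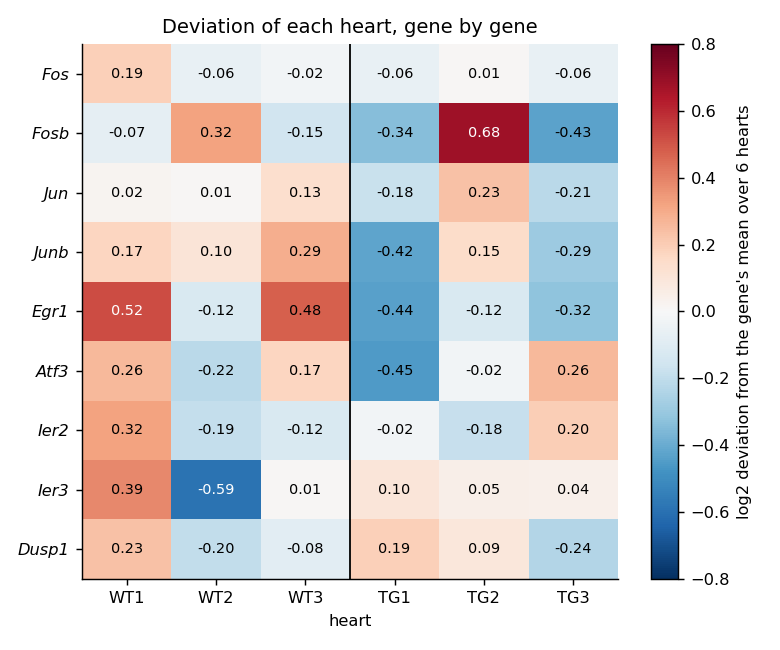
Log2 deviation of each heart (columns) from the gene's mean over the 6 hearts (rows), red for higher and blue for lower, with the value in each cell. WT1 is at or above the mean in 8 of 9 genes and TG1 below it in 7; the largest deviations are 0.68 for Fosb in TG2 and -0.59 for Ier3 in WT2.

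The 36 pairs of genes were correlated over the 6 hearts, each test an exact permutation test over all 720 orders. Pearson's r had a median of 0.32, from -0.60 for Fosb with Ier2 to 0.87 for Jun with Junb, and was positive in 27 pairs (75%). Over all pairs of complete probes 52.2% were positive and the median was 0.04. An r of at least 0.7 was found in 4 member pairs (11.1%), beside 11.9% of all pairs. After Benjamini-Hochberg adjustment over the 36 pairs 0 passed, with a smallest adjusted exact p of 0.607 for r and 0.70 for Spearman's rho, and 1 pair had an unadjusted exact p under 0.05 for r and 1 other pair for rho.

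For r that pair was Jun with Junb, at r = 0.87 (exact permutation p = 0.0375) and rho = 0.77 (exact permutation p = 0.103). Without the 2 hearts whose Jun values were farthest from the median r was 0.98. The other pairs with r of at least 0.7 were Junb with Egr1 (0.82), whose rho of 0.89 had an unadjusted exact permutation p of 0.0333, Fosb with Jun (0.80) and Fos with Egr1 (0.71). With each group centred on its own mean the median r of the 36 pairs was 0.37 and 29 pairs were positive. Correlations of 6 arrays also share what differs between the arrays as a whole.

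The promoters of Jun and its closest AP-1 partners by r, Junb and Fosb, and of Dusp1, whose r with each of these was at most 0.17, are shown for the motifs through which CREB and EGR factors bind. Sequences are the 250 bases before the transcription start, from RefSeq (GRCm38.p6), 5′ to 3′ along the gene, and capitals mark matches on either strand.
Jun (chr4:95052223-95052472, minus strand): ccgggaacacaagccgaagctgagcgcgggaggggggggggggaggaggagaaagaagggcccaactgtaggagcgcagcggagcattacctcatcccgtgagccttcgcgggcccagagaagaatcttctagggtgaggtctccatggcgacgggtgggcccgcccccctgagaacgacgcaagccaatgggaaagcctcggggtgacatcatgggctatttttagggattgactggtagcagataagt
Junb (chr8:84978749-84978998, minus strand): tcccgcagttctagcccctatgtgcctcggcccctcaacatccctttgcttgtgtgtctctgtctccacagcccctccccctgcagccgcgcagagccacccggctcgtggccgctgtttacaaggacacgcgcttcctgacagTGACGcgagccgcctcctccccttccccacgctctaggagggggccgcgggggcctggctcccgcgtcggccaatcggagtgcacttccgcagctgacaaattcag
Fosb (chr7:19310046-19310295, minus strand): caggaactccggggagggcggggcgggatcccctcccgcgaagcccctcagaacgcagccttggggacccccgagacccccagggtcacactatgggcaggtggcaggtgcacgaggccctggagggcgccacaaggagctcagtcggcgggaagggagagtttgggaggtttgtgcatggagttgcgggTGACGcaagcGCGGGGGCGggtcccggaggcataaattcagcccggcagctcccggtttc
Dusp1 (chr17:26508473-26508722, minus strand): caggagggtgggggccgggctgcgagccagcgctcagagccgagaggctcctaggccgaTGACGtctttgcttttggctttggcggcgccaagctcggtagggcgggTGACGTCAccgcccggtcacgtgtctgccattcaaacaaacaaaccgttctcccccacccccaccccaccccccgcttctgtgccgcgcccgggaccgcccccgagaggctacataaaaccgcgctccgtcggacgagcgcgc

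Promoters of 7 of the 9 genes were searched, and those of Egr1 and Ier2 were not analysed here. The CREB site TGACGTCA was found in 1 of 7, Dusp1, beside 1.55% of 32851 promoters of the same length. Its core TGACG, which is part of that site, was found in 5 of 7 (Fos, Fosb, Junb, Atf3 and Dusp1), beside 17.8% of all. The EGR motif GCGNGGGCG was found in Fosb alone, beside 4.70% of all. The AP-1 motif TGANTCA and the CArG box of SRF were found in 0 of 7, beside 6.75% and 1.47%. A match is a description of the sequence, and these windows leave out elements farther upstream.

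The 8 genes outside the list that followed the mean profile of the members most closely over the 6 hearts were Ubqln1 (r = 0.99), Dyrk1a and Tinf2 (both 0.98), Agpat4 (0.98), Pspc1 (0.98), Rif1 (0.97), Gabarapl2 (0.97) and Wdpcp (0.97). Their differences between groups lay between -0.15 for Agpat4 and -0.07 for Pspc1, and 90 probes in all (0.451%) had r of at least 0.9 with the profile.

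Other genes of the same response were taken from 6 lists with 98 measured genes. By limma 0 of them passed the adjusted threshold, and the smallest adjusted p was 0.348. An unadjusted limma p under 0.05 was found for 6 genes with a lower mean (6.12%) and for 2 with a higher one (2.04%), beside 1.66% and 0.715% of all 20000 probes. The lists were chosen with earlier results known, so nothing particular to them is read from these shares. The median difference of the 98 genes was 0.01.

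Among 11 other AP-1 subunits and partners 5 had a lower and 6 a higher mean, with a median difference of 0.10, from -0.28 for Batf2 to 0.20 for Jdp2, a JUN dimerization protein. Among 22 other immediate early genes 12 had a lower and 10 a higher mean. The orphan nuclear receptor Nr4a1 had the largest difference of these in the higher direction. It measured 12.43, 11.66 and 11.83 in WT1 to WT3 and 12.79, 12.45 and 12.50 in TG1 to TG3, so the groups did not overlap, with TG2 just above WT1. The difference was 0.61 ± 0.22 (SE, limma unadjusted p = 0.0239, adjusted p = 1.0), while its relative Nr4a2 gave -0.25.

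Of 17 feedback regulators, 9 had a lower mean and 8 a higher one. Dusp4, a nuclear MAPK phosphatase, measured 8.32, 7.39 and 7.60 in the WT hearts and 7.17, 7.19 and 7.08 in the TG-PKR1 hearts, without overlap, a difference of -0.62 ± 0.24 (SE, limma adjusted p = 1.0). Dusp16, a JNK phosphatase, gave 0.45. Upstream kinases and transcription factors had a higher mean in 15 of 21 genes, from -0.15 for Mapk7 to 0.34 for Map2k3, and 0 had an unadjusted p under 0.05.

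Glucocorticoid-responsive genes, which rise with the stress hormone corticosterone, had a lower mean in 5 of 14 and a higher one in 9. The extremes were Mt2, a metallothionein, at -0.84 and the clock gene Per1 at 0.60. The groups did not overlap for either gene. Their unadjusted limma p was 0.0129 and 0.0438, and neither passed the adjusted threshold. Genes of the ATF4 and integrated stress response, through which Atf3 can also be induced, had a lower mean in 8 of 13 and a median difference of -0.25. Asns, asparagine synthetase, measured 9.91, 9.95 and 9.57 in the WT hearts and 8.66, 9.18 and 8.36 in the TG-PKR1 hearts, without overlap. Its difference was -1.08 ± 0.23 (SE), and its adjusted limma p of 0.348 was the smallest of the 98 genes. Herpud1 of the same list gave 0.32.

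Marker levels of other cell types were set beside these values, as heart RNA cannot tell fewer cells of a type from less RNA per cell. White and general adipocyte markers were lower in TG-PKR1 without overlap for 4 of 4 measured genes. Of these 3, Adipoq, Cidec and Plin1, had an adjusted limma p under 0.05 in the fit of all 6 hearts. The summed linear signal of the 4 genes ran from 15479 to 24139 in WT and from 3810 to 5582 in TG-PKR1. Brown adipocyte markers were lower without overlap for 3 of 4, 1 of them, Ucp1, past the adjusted threshold, with sums of 41837 to 68954 and 12370 to 17862. The fourth, Ppargc1a, had a difference of 0.49 and did not pass. As no probe of the 20000 passed without WT1, WT3, TG1 or TG3, these calls were lost there. They were also lost under 75th percentile scaling and with the inferred scan mode as a block, where no probe passed. The same held without the filter to 20000 probes, with the filter on background, with probes of a gene averaged and in the authors' table. The part of these cells in the Egr1 or Asns values was not tested.

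For the cardiomyocyte markers 10 of 10 were measured and 0 passed, with sums of 795215 to 1144740 in WT and 824447 to 1387740 in TG-PKR1. All 10 had a higher mean in TG-PKR1, with a median difference of 0.07, beside 0.03 for all 20000 probes. Endothelial (7 genes), fibroblast (6), smooth muscle (4), macrophage (5) and erythroid (3) markers also had 0 past the adjusted threshold. In the same order, 4, 5, 2, 3 and 3 of them had a lower mean. These directions were not tested. Of the skeletal muscle, thymus and T cell, and lung epithelium lists 2, 1 and 0 genes were among the 20000 probes.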

How the data were processed

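Total RNA of 6 hearts was labelled with Cy3 and hybridized to Agilent mouse arrays, 1 per heart. The authors deposited the scanner intensity of each spot, extracted with Agilent Feature Extraction 9.5.1.1 and not normalized between arrays. They also deposited log2 values that they had LOWESS-normalized to the arrays' median profile, averaged by probe and filtered by median. The scanner software's 0 or 1 marks per spot were used as well. Probe positions are those of mm8.

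From the intensity values, log2 median signals without control and outlier spots were loess-normalized (span 0.3, 4 iterations) to the median profile. Repeated spots were averaged to 1 value per probe, after which the 20000 probes of highest median entered the fit. A gene is represented by its brightest probe. Groups were compared by limma 3.58.1 in R 4.3.3 with the data.table package (1.17.8), Benjamini-Hochberg adjusted at 0.05 over all probes tested. SAM over all 20 assignments, at an estimated false discovery rate of 0, was the second test. Correlations, spread and motifs were computed in Python 3.11.15 with pandas 2.3.3, numpy 2.4.6 and SciPy 1.17.1, and plots drawn with matplotlib 3.10.9. A probe was well above background where more than 0.5 of its spots were. The model was tested on simulated data.

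The genes and lists were written with earlier results of these data known. Named genes were all 9 members, the extremes of each list of the same response, any list gene past the threshold and the 8 most similar genes. Prokr1 and the brown adipocyte marker Ppargc1a were named as well. RefSeq accessions named 15326 of the 20000 probes and symbols 2195, and 2479 kept the name in the files. Per the methods the arrays were of separate animals. As each heart had its own array, the spread behind the p-values joins that between hearts with labelling, hybridization and scanning error. In limma it is also moderated over all probes of the fit. The number of arrays and signal over background limit the precision. Alternatives changed the signal, background, normalization, filter, test, scan mode and hearts. The methods name LOWESS without its settings.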

Additional observations from a re-analysis of the deposited data

How the results depend on the processing

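No probe of these genes was called under any of 18 other fits or by SAM. The dim-probe filter left 9 to 11 of the 11 probes in a fit, 9 were in the SAM test, and probes outside a filter were read from the same setting's fit over all probes where it was run. Over all probes limma called 19 as reported, 36 with normexp and quantile normalization, 33 with quantile normalization, 31 with trend and robust settings, and 0 under 75th percentile scaling, with the inferred scan mode as a block, without the filter to 20000 probes, with the filter on background, with probes of a gene averaged and in the authors' table. The median difference of the 9 genes stayed below 0, from -0.21 to -0.07 over the processing alternatives and from -0.17 to -0.04 with 1 heart left out. The median pairwise r lay between 0.15 and 0.37 over the processing alternatives and between 0.20 and 0.42 with 1 heart left out. The median pooled SD was 0.363 under 75th percentile scaling, against 0.239, and 0.223 to 0.262 with 1 heart left out. Egr1 groups overlapped under that scaling, and there the Ier2 difference was 0.054. In the authors' table Fosb gave 0.08 and Dusp1 -0.017. The Fos difference was -0.51 under 75th percentile scaling. Junb groups did not overlap under either quantile normalization, nor Fos groups under quantile normalization or with outlier spots kept. With 1 heart left out the difference ranged from -0.12 to 0.0043 for Fos, -0.42 to 0.14 for Fosb, -0.31 to 0.049 for Atf3, -0.11 to 0.15 for Ier2, -0.14 to 0.35 for Ier3 and -0.062 to 0.15 for Dusp1. The cause of these changes was not tested. Slide as a random block could not be fitted, since 1 slide alone held 2 of the arrays. No paired analysis was possible because no label ties a WT mouse to a TG-PKR1 mouse. Fos, close to background on the arrays of WT2 and TG1, and 3 hearts a group limit what could be detected.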
